A study of Mus musculus with 12 samples.

Results

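The genes described here are 40 genes of DNA replication and S phase, chosen by gene symbol for their part in replication licensing, the replicative helicase, the polymerases, the clamp and clamp loader, and nucleotide supply. They are 40 of the 24470 genes counted by RNA-seq in fetal mouse testes, and all 40 passed the filter on low counts that left 15572 genes. Replication starts where the origin recognition complex, Cdc6 and Cdt1 load the MCM2-7 ring onto DNA in G1, and Cdc45 and the GINS complex then turn that ring into the active CMG helicase at the start of S phase. Behind the helicase, primase and the DNA polymerases copy both strands, held on the template by the PCNA ring that the RFC complex loads. Many of these genes are transcribed under E2F control at the G1/S boundary, so that their mRNA levels in a tissue follow the share of its cells that are dividing, and in the fetal testis Sertoli cells, interstitial cells and, early on, germ cells all divide.

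Testes were collected at E14.5 from control embryos (Nr2f2 f/f) and from conditional knockout embryos (Wt1 CreER x Nr2f2 f/f, hereafter cKO), and both groups had been exposed to tamoxifen at E11.5 and E12.5. All embryos carried the floxed Nr2f2 allele, and Cre was driven from the Wt1 locus, so the deletion was directed to Wt1+ cells and their descendants rather than to every cell of the testis. Only the cKO genotype carried Cre, so effects of Cre and of the modified Wt1 locus cannot be told apart from those of Nr2f2 deletion. Each group had 6 libraries, and each library was made from a pool of 3 testes. The sources used here do not say whether pools came from separate litters, so p-values measure the spread between pools. Total counts ranged from 7044531 to 39965574 in control and from 7322959 to 59404778 in cKO libraries, and Nr2f2 itself was at 162.5 to 185.9 CPM (counts scaled to library size with TMM factors) in control and 50.2 to 118.6 CPM in cKO pools.

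Of the 12 libraries, 4 stood apart and went against their label of testis. Xist, which is transcribed from the inactive X chromosome of XX cells, was at 891 CPM in control replicate 1 and at 304, 507 and 433 CPM in cKO replicates 3, 5 and 6, against 5.16 to 7.68 CPM in the other 8 libraries. Foxl2, a transcription factor that defines ovarian granulosa cells, was at 47.2, 19.3, 19.1 and 14.6 CPM in the same 4 libraries and at 0.23 to 1.30 CPM in the others. The testis markers Sox9 (36.0 to 80.6 CPM) and Amh (278 to 632 CPM) were present in all 12 libraries. Stra8, which marks germ cells entering meiosis, was at 87.7 and 73.6 CPM in cKO replicates 5 and 6 and at 2.58 to 10.2 CPM elsewhere. Results are therefore given over all 12 libraries and again over the 8 libraries with Xist under 100 CPM, of which 5 were control and 3 were cKO. The 2 comparisons also differ in the loss of Nr2f2. It was at 78.9, 118.6 and 78.8 CPM in cKO replicates 1, 2 and 4, which were kept. In cKO replicates 3, 5 and 6, which were left out, it was at 75.4, 50.2 and 53.6 CPM. The log2 fold change of Nr2f2 was -1.21 over 12 and -0.94 over 8 libraries. In whole testes, fewer cells of a dividing type and less RNA per cell cannot be told apart.

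To show the E2F sites that link many of these genes, their promoters were read from RefSeq (GRCm38.p6, the same build as mm10), from 250 bases before to 50 bases after the transcription start, on both strands. A promoter was found for 32 of the 40 genes. The letters TTTNNCGC with C or G at each N, a common E2F site, occurred in 15 of the 32 (46.9%), compared with 4.5% of the 12223 tested genes with a promoter. CCAAT, the NF-Y box, occurred in 22 of 32 (68.8%), compared with 42.7%, and TTTGAA, the CHR element of genes expressed in G2 and mitosis, in 4 of 32 (12.5%), compared with 14.3%. Matches that overlap on opposite strands were each counted, and a match describes the sequence and is not a site of binding. The first 4 sequences belong to the genes with the smallest p-values that held one of these motifs within the stretch printed. Pold1, with a smaller p than Orc6, held its E2F match outside that stretch (40 to 47 bases after the start) and is not shown. Mcm6 was added after its values had been seen, as a gene with 3 E2F matches whose mRNA level did not pass the test. Each sequence runs from 150 bases before to 30 bases after the start, with the motif on either strand in capitals.
Cdc6 (chr11:98908001-98908180, + strand): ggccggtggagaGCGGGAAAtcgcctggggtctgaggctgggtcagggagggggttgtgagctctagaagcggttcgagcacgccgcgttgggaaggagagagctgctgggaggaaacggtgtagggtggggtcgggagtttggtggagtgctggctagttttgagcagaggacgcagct
Pole2 (chr12:69228161-69228340, - strand): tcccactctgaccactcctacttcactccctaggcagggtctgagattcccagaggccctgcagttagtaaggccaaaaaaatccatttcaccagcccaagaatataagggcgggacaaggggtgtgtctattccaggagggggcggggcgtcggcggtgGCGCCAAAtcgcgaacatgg
Pcna (chr2:132253151-132253330, - strand): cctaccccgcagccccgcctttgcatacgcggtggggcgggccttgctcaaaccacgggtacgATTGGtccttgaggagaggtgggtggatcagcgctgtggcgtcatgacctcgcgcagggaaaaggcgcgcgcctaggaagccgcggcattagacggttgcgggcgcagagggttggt
Orc6 (chr8:85299482-85299661, + strand): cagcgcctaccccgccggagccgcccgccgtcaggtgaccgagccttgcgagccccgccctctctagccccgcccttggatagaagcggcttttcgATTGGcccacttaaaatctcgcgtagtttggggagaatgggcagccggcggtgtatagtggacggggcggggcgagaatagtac
Mcm6 (chr1:128359676-128359855, - strand): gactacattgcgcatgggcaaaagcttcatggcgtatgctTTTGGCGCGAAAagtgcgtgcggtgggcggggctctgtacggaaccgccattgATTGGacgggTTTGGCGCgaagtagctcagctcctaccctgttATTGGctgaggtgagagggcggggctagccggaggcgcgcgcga
The capitals mark an E2F match in Cdc6 (138 to 131 bases before the start) and in Pole2 (11 to 18 bases after it), a CCAAT box on the opposite strand in Pcna and Orc6, and 3 E2F matches (of which a pair overlap) with 2 CCAAT boxes in Mcm6. Neither Tyms, Rfc4 nor Rfc5 held any of these letters in the window.

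Deletion of Nr2f2 was accompanied by lower expression of 3 of the 40 genes, Gins2, Tyms and Cdc6, and by higher expression of none, at an adjusted p under 0.05 (quasi-likelihood test of edgeR, Benjamini-Hochberg adjustment over all 15572 genes). Among all genes tested, 4.85% were called lower and 3.28% higher, so that the share of these 40 called lower was close to the background. The changes were small, and all 40 log2 fold changes (cKO relative to control) lay between -0.50 and 0.27. Of the 40 values, 28 were negative and 12 positive, with a median of -0.10, beside a median of 0.00 over all genes tested, of which 49.4% were negative. Leaving out control replicate 5 alone brought the median of the 40 to -0.03, and leaving out control replicate 1 alone to -0.17. Scaling by total counts alone turned the sign of 4 values, none over 0.03 in size, which gave 24 negative and 16 positive. At an unadjusted p under 0.05 there were 10 genes on the lower side and 2, Pold1 and Pold3, on the higher side, while 13.2% of all genes tested lay on the lower and 12.1% on the higher side. The 6 cKO pools were all below the lowest control in 1 gene, Gins2, and all above the highest in none, compared with 3.13% and 2.39% of all genes tested.

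**Figure D1:**
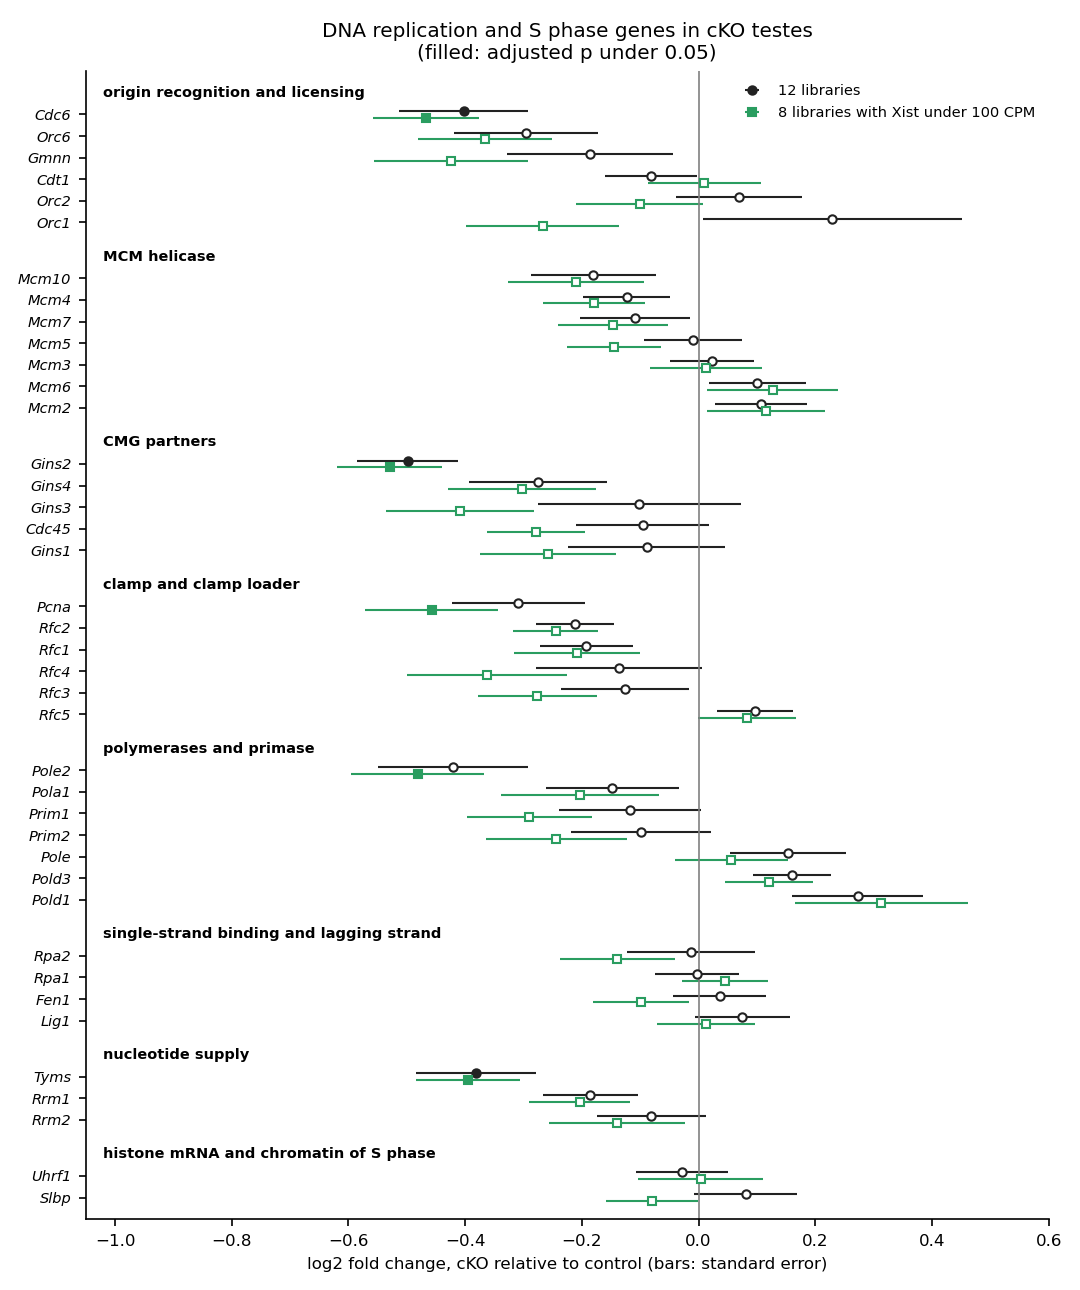
Log2 fold change of each of the 40 genes in cKO relative to control testes, by function, over 12 libraries (circles) and over the 8 libraries with Xist under 100 CPM (squares). Bars are standard errors and filled symbols have an adjusted p under 0.05. The values over 12 libraries run from -0.50 (Gins2) to 0.27 (Pold1), and the median moves from -0.10 over 12 to -0.20 over 8 libraries.

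Over the 8 libraries with Xist under 100 CPM, 5 genes were called lower, the same 3 with Pcna and Pole2, and none was called higher, beside 3.39% and 3.68% of all genes tested. The median log2 fold change was -0.20, and 29 of the 40 values were negative. In 15 of the 40 genes all 3 cKO pools lay under all 5 control pools and in none did they lie over them, whereas 14.1% of all genes tested lay wholly on each side. Control replicate 1 weighed most on the comparison of 12 libraries. It had the lowest level of the 6 controls in 31 of the 40 genes, compared with 28.1% of all genes tested, and lay under every cKO pool in 30, compared with 23.9%. Without that library alone, 9 genes were called lower (Gins2, Cdc6, Tyms, Pole2, Pcna, Orc6, Rfc2, Rrm1 and Gins4) and none higher, but far more of all genes tested were then called as well, 10.5% lower and 9.44% higher.

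Sorted by abundance per length, the sliding clamp and the MCM ring stood at the top. Pcna had 67.9 ± 13.6 CPM per kilobase of exon (SD, n = 6 control pools), followed by Mcm6 with 58.8 ± 7.07, Mcm7 with 58.8 ± 8.92, Mcm4 with 57.9 ± 6.42, Mcm3 with 53.5 ± 5.34 and Mcm5 with 48.1 ± 3.98. Mcm2 was lower than the other subunits of the ring, at 27.2 ± 3.07 CPM per kilobase. The lowest levels were those of Cdc6 (6.37 ± 1.08), Gins2 (6.02 ± 0.71) and Orc1 (5.66 ± 0.92). Each gene's range over the control pools overlapped that of the next in the order, so no step between neighbours was larger than the spread. Of the 3 genes called lower, none was among the abundant ones, and Tyms had 9.76 ± 1.63 CPM per kilobase. Exon lengths were those of all annotated exons, which lowers the value of genes with long alternative exons, such as Tyms with 6089 bases and Mcm2 with 6956.

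**Figure D2:**
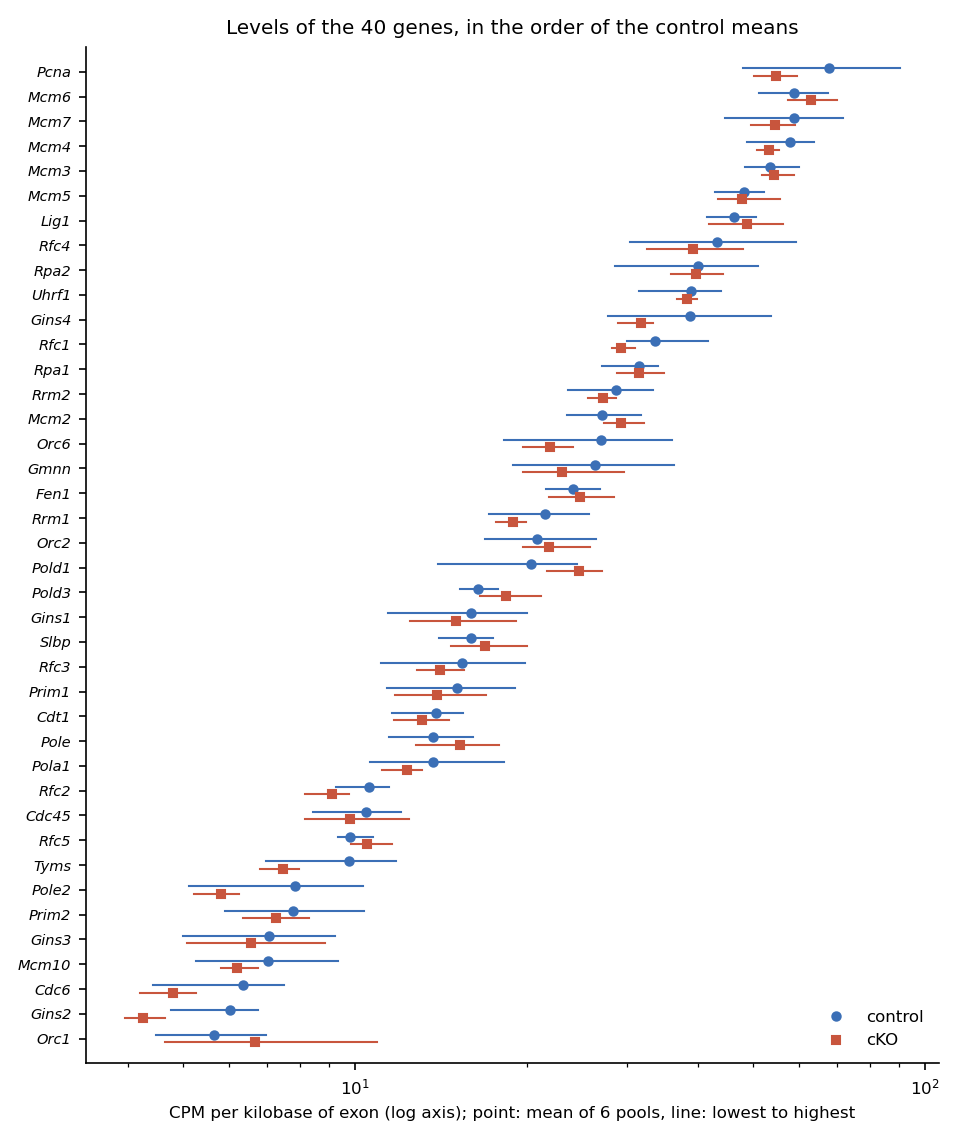
Levels of the 40 genes in CPM per kilobase of exon on a log axis, in the order of their control means. Points are means of 6 pools and lines run from the lowest to the highest pool. Pcna leads with 67.9 and Orc1 is lowest with 5.66 in control pools, and the lines of neighbouring genes overlap.

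Origin recognition and licensing was represented by 6 genes, of which Cdc6 was called lower. Cdc6 (Entrez Gene 23834, chromosome 11 from 98907889 to 98923942) is the loader that, bound to the origin recognition complex, recruits the MCM ring. Its level was 23.2 to 39.3 CPM in control pools (median 34.2) and 22.0 to 27.5 CPM in cKO pools (median 25.04). Control replicate 1 was the only control among the cKO values, and the other 5 controls, from 31.8 CPM upwards, lay over all 6 cKO pools. The mean fell from 33.3 ± 5.63 to 25.1 ± 1.86 CPM (SD, n = 6 pools each), with a log2 fold change of -0.40 (standard error, SE, 0.11, adjusted p = 0.0379 by edgeR), and over the 8 libraries the value was -0.47 (adjusted p = 0.0117). With Xist level as a covariate the adjusted p was 0.0769, and leaving out 1 library at a time it ran from 0.00114 (without control replicate 1) to 0.0868, under the threshold only without control replicate 1 or without cKO replicate 6.

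Orc6, the smallest subunit of the origin recognition complex, had 45.0 to 88.8 CPM in control pools (median 66.6) and 48.6 to 59.6 CPM in cKO pools (median 54.5). Its log2 fold change of -0.30 (SE 0.12) did not pass the test (adjusted p = 0.155 by edgeR). Geminin (Gmnn), the inhibitor that keeps Cdt1 from loading MCM rings again after S phase has begun, had a log2 fold change of -0.19, and Cdt1 itself one of -0.08. Neither passed the test, and the control ranges of 27.8 to 53.3 CPM for Gmnn and 36.5 to 48.5 CPM for Cdt1 enclosed all cKO pools. For Gmnn the low end of that range was control replicate 1, and without the 4 libraries high in Xist all 3 cKO pools (28.9 to 31.6 CPM) lay under all 5 controls (34.1 CPM or more), with a log2 fold change of -0.43 (adjusted p = 0.0746). Orc2, another subunit of the complex, had a log2 fold change of 0.07 over 12 and -0.10 over 8 libraries.

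Orc1, an ATPase subunit of the origin recognition complex, showed the widest spread among cKO pools relative to its mean (SD 42.7% of the mean). It was at 38.0 and 33.7 CPM in cKO replicates 5 and 6, at 16.1 to 17.7 CPM in the other 4 cKO pools, and at 15.5 to 24.3 CPM in control pools. Its log2 fold change was 0.23 over 12 libraries (SE 0.22, adjusted p = 0.533 by edgeR) and -0.27 over the 8 libraries, which leave both high pools out (adjusted p = 0.202). The same pair of pools was high in Stra8. They also lay over the other 4 cKO pools in 19 of the 40 genes, compared with 24.5% of all genes tested, and under them in 3, Cdt1, Rpa1 and Uhrf1, compared with 25.1%. In 7 genes, Mcm5, Orc1, Pold3, Pole, Fen1, Lig1 and Slbp, they lay over every control pool too, compared with 10.2% of all genes tested. The part that cells entering meiosis have in these levels was not tested.

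The MCM group moved little. The 6 subunits of the MCM2-7 ring, the motor that unwinds DNA at the fork, had log2 fold changes from -0.12 (Mcm4) to 0.11 (Mcm2), and Mcm10, which helps to activate the ring, had -0.18. None of the 7 passed the test, with adjusted p from 0.305 (Mcm10) to 0.960 (Mcm5). Standard errors of 0.07 to 0.11 put the approximate 95% interval of Mcm2 at -0.05 to 0.26 and that of Mcm3, at 0.02, at -0.12 to 0.17. Mcm2 ranged from 164.0 to 221 CPM in control and from 190.2 to 224 CPM in cKO pools, and Mcm4 from 174.6 to 229 and from 182.1 to 199 CPM, so that in each case the groups overlapped. Mcm6 was at 238 to 315 CPM in control and 269 to 327 CPM in cKO pools (log2 fold change 0.10), Mcm7 at 197 to 318 and 219 to 261 CPM (-0.11), and Mcm5 at 171 to 208 and 173 to 222 CPM (-0.01). Within the ring, Mcm2 and Mcm6 were positive and Mcm4 and Mcm7 negative both over 12 and over 8 libraries.

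The partners that complete the CMG helicase held the clearest change of the set. Gins2 (Entrez Gene 272551, chromosome 8 from 120581266 to 120589075), which encodes the PSF2 subunit of the GINS complex, was at 19.5, 24.0, 24.5, 27.7, 27.0 and 25.3 CPM in control replicates 1 to 6. In cKO replicates 1 to 6 it was at 17.5, 19.0, 17.5, 16.9, 16.2 and 17.4 CPM. No cKO pool reached the lowest control, replicate 1. The mean fell from 24.7 ± 2.91 to 17.4 ± 0.95 CPM (SD, n = 6 pools each), with a log2 fold change of -0.50 (SE 0.09, adjusted p = 0.00293 by edgeR). This is a drop of 29.2% in the fitted group level, and all 6 cKO pools were below the control mean. Over the 8 libraries the log2 fold change was -0.53 (adjusted p = 0.00619), and with Xist level as a covariate it was -0.44 (adjusted p = 0.00329). The call held whichever of the 12 libraries was left out, with adjusted p from 0.000278 to 0.0102. Gins2 overlaps Gse1 on the opposite strand, and the deposited counts were made by strand.

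The other 3 GINS subunits did not pass the test over 12 libraries. Gins4 (SLD5) was at 37.4 to 72.5 CPM in control (median 50.1) and 39.1 to 45.0 CPM in cKO pools (median 43.5), with a log2 fold change of -0.28 (SE 0.12, adjusted p = 0.166 by edgeR). Gins1 (PSF1) had a log2 fold change of -0.09 and Gins3 (PSF3) one of -0.10, which became -0.26 (adjusted p = 0.174) and -0.41 (adjusted p = 0.0739) over the 8 libraries. For Gins3, cKO replicates 5 and 6, both at about the level of the highest controls with 23.9 and 24.0 CPM, lay apart from 13.8 to 16.1 CPM in the other cKO pools. Cdc45, the protein that bridges GINS and the MCM ring, had a log2 fold change of -0.10 over 12 libraries and -0.28 over 8 (adjusted p = 0.0689). All 5 genes of this group were negative, and Gins2 was the one that passed the test.

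**Figure D3:**
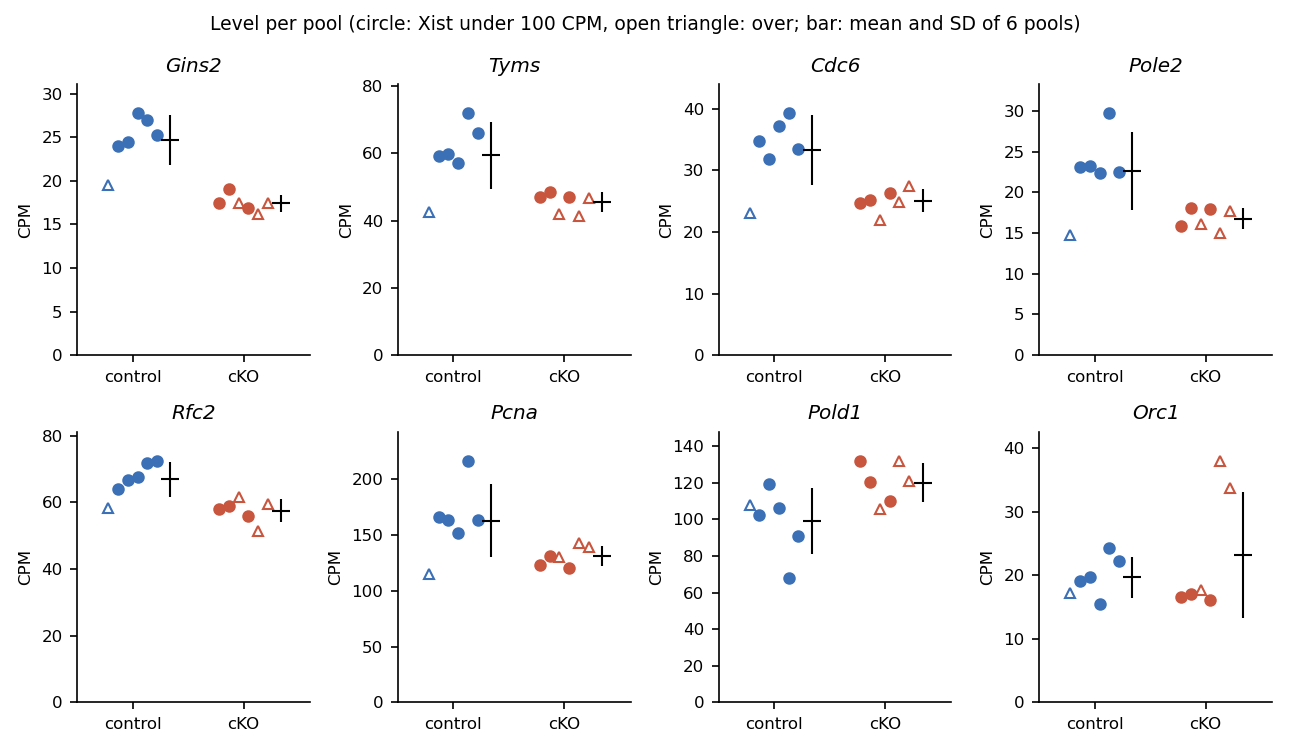
CPM of 8 genes in each of 6 control and 6 cKO pools. Circles are libraries with Xist under 100 CPM, open triangles those with Xist over 100 CPM, and bars give the mean and SD of 6 pools. For Gins2 the groups do not overlap, for Tyms, Cdc6 and Pole2 the overlap comes from control replicate 1, and Orc1 is high in cKO replicates 5 and 6.

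In the clamp and clamp loader group, Pcna and the RFC subunits, 5 of 6 values were negative and none passed the test over 12 libraries. Pcna, the sliding clamp that tethers the polymerases, was at 115 to 217 CPM in control (median 164) and 120.5 to 143 CPM in cKO pools (median 131). Control replicate 1 gave the lowest value of all 12 libraries and control replicate 5 the highest. The log2 fold change of -0.31 (SE 0.11) had an edgeR adjusted p of 0.112. Over the 8 libraries it was -0.46 (adjusted p = 0.0365), with 151.6 CPM as the lowest of 5 controls and 131.7 CPM as the highest of 3 cKO pools. Leaving out 1 library at a time, the adjusted p ran from 0.00904 (without control replicate 1, the only such fit under the threshold) to 0.192.

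Rfc2, a small subunit of the clamp loader, was at 58.4 to 72.4 CPM in control (median 67.2) and 51.4 to 61.6 CPM in cKO pools (median 58.4), and 3 of 6 cKO pools lay under every control. Its log2 fold change was -0.21 (SE 0.07, adjusted p = 0.0676 by edgeR). Rfc1, the large subunit, was at 180.4 to 251 CPM in control (median 190.3) and 170.1 to 187 CPM in cKO pools (median 176), and 5 of 6 cKO pools lay under every control. Its log2 fold change was -0.19 (SE 0.08, adjusted p = 0.155 by edgeR). Rfc3 (-0.13) and Rfc4 (-0.14) had wide control ranges, 40.04 to 71.8 and 46.6 to 91.0 CPM, which enclosed the cKO pools. Control replicate 1 was the low end of both ranges. In the 8 libraries all 3 cKO pools lay under all 5 controls for both genes, and the log2 fold changes were -0.28 (adjusted p = 0.116) and -0.36 (adjusted p = 0.121). Rfc5 was the exception in sign, with a log2 fold change of 0.10 over 12 and 0.08 over 8 libraries.

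The polymerases and primase were split by subunit. Pole2, the second subunit of the leading-strand polymerase epsilon, was at 14.8 to 29.7 CPM in control (median 22.8) and 15.1 to 18.1 CPM in cKO pools (median 16.9). The 5 controls other than replicate 1 lay at 22.4 CPM or more, over all 6 cKO pools. The log2 fold change of -0.42 (SE 0.13) had an edgeR adjusted p of 0.0597 over 12 libraries, and -0.48 had 0.0296 over 8. Without control replicate 1 the adjusted p was 0.00213, and leaving out any other library it stayed over the threshold, up to 0.12. Its catalytic partner Pole went the other way in value, at 0.15 (adjusted p = 0.349), with 128 to 179.5 CPM in control and 143 to 200 CPM in cKO pools. The difference between the 2 subunits was not tested.

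Pold1, the catalytic subunit of the lagging-strand polymerase delta, was at 68.0 to 119 CPM in control (median 104) and 105.5 to 132 CPM in cKO pools (median 120.7), and 4 of 6 cKO pools lay over every control. Its log2 fold change of 0.27 (SE 0.11, adjusted p = 0.152 by edgeR) was the highest of the 40 and did not pass the test. The lowest control was replicate 5, which was highest in many other genes of the set. Pold3, an accessory subunit of polymerase delta, was at 70.4 to 82.0 CPM in control (median 75.8) and 76.2 to 97.7 CPM in cKO pools (median 83.6), also with 4 of 6 cKO pools over every control (log2 fold change 0.16, SE 0.07, adjusted p = 0.156 by edgeR). Pola1, the catalytic subunit of polymerase alpha, and the primase subunits Prim1 and Prim2, which lay down the RNA primer, had log2 fold changes of -0.15, -0.12 and -0.10, and none passed the test. For Prim1 and Prim2 the values over 8 libraries were -0.29 and -0.24 (adjusted p = 0.115 and 0.208).

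The proteins of single-stranded DNA and of lagging-strand maturation lay near 0. Rpa1 and Rpa2, subunits of the complex that coats single-stranded DNA, had log2 fold changes of -0.00 and -0.01. Fen1, the flap nuclease, had 0.04, and Lig1, the ligase that seals Okazaki fragments, 0.08. Their adjusted p ran from 0.582 (Lig1) to 0.989 (Rpa1). In control pools Rpa1 was at 151 to 189.9 CPM, Rpa2 at 85.6 to 152.4 CPM, Fen1 at 52.4 to 65.2 CPM and Lig1 at 177.0 to 216 CPM, and the groups overlapped in each.

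Nucleotide supply was lower in value in all 3 genes, of which Tyms passed the test. Tyms (Entrez Gene 22171, chromosome 5 from 30058200 to 30073625), thymidylate synthase, makes the thymidine nucleotide from dUMP. It was at 42.5 to 71.9 CPM in control (median 59.6) and 41.5 to 48.6 CPM in cKO pools (median 46.8). Control replicate 1, at 42.5 CPM, was the only control in the range of the cKO pools, and the next control was at 57.2 CPM. The mean fell from 59.5 ± 9.91 to 45.4 ± 2.96 CPM (SD, n = 6 pools each), with a log2 fold change of -0.38 (SE 0.10, adjusted p = 0.0363 by edgeR), and over the 8 libraries it was -0.40 (adjusted p = 0.0242). With Xist level as a covariate the adjusted p was 0.0537, and leaving out 1 library at a time it ran from 0.00122 (without control replicate 1) to 0.0849, under the threshold only without control replicate 1 or without cKO replicate 2. Tyms-ps, a pseudogene copy counted on its own row, had 0 to 5 counts per library.

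Rrm1 and Rrm2 encode the large and the small subunit of ribonucleotide reductase, which makes deoxynucleotides. Rrm1 was at 189.0 to 283 CPM in control and 195 to 219.9 CPM in cKO pools, with a log2 fold change of -0.19 (adjusted p = 0.173 by edgeR). Rrm2 had a log2 fold change of -0.08 (adjusted p = 0.610). Of the remaining pair, Slbp, which binds the stem-loop of histone mRNAs, had 0.08 (-0.08 over 8 libraries), and Uhrf1, which brings DNA methylation to newly copied DNA, had -0.03. In both the groups overlapped and neither passed the test.

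Read pool by pool over 12 libraries, the mean log2 level of the 40 genes overlapped between the genotypes, and over the 8 libraries with Xist under 100 CPM it did not. The mean of their log2 levels, relative to the mean of the controls, was -0.28 in control replicate 1 and 0.05, 0.06, -0.01, 0.16 and 0.02 in control replicates 2 to 6. It was -0.08, -0.10, -0.20 and -0.16 in cKO replicates 1 to 4, and 0.03 and 0.02 in cKO replicates 5 and 6. Thus the lowest pool was a control, and the first 4 cKO pools lay between it and the other controls. Among the 8 libraries, cKO replicates 1, 2 and 4 (-0.08, -0.10 and -0.16) were all below control replicates 2 to 6 (-0.01 to 0.16). With so few pools, 14.1% of all single genes tested lay wholly on each side. The mean of 54 further replication genes, described below, overlapped in these libraries, with cKO replicate 1 (-0.02) over control replicate 4 (-0.03). The summed level of the 40 genes was 3543 CPM in control replicate 1, 4111 to 4494 CPM in the other controls and 3774 to 4323 CPM in cKO pools. This sum, unlike the mean of log2 levels, overlapped also over the 8 libraries, where cKO replicate 1 at 4148 CPM was over control replicate 6 at 4111 CPM. Control replicate 5 was the highest control in 22 of the 40 genes, Pcna, Orc6 and Rfc1 among them, and the lowest in 6, among them Pold1, Uhrf1 and Mcm2.

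**Figure D4:**
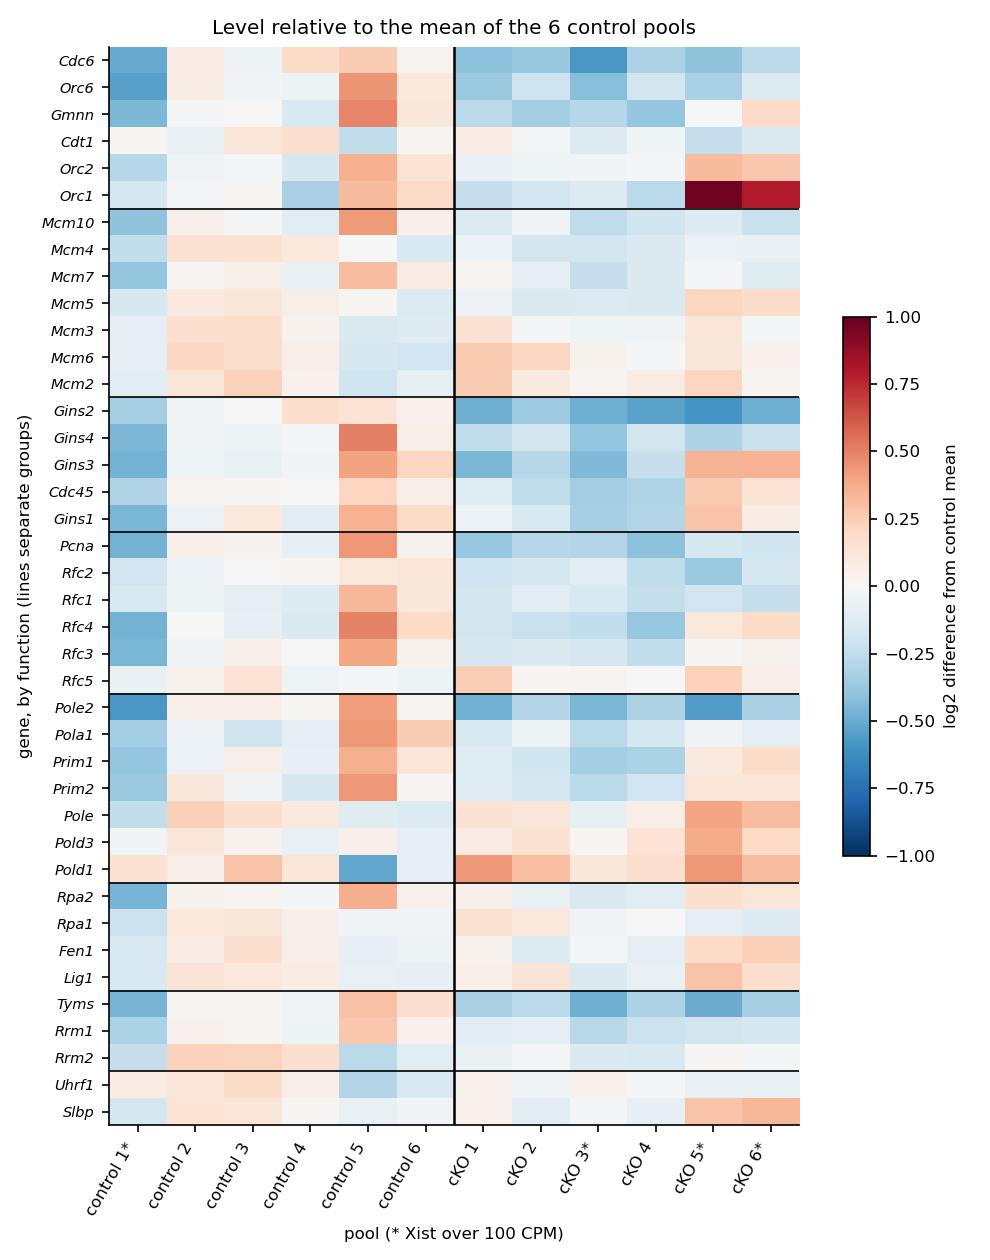
Level of each of the 40 genes in 12 pools as the log2 difference from the mean of the 6 control pools, by function. Asterisks mark libraries with Xist over 100 CPM. Control replicate 1 is lower than the control mean in 37 of 40 genes. Below the control mean in all 6 cKO pools are 13 genes, Gins2, Tyms, Cdc6, Pcna and Pole2 among them, and above it in all 6 are 4 (Mcm2, Rfc5, Pold1 and Pold3), compared with 19.8% and 20.3% of all genes tested.

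Genes with and without an E2F match in the promoter overlapped in their fold changes. Among the 15 with a match the median log2 fold change was -0.03, and values ran from -0.42 (Pole2) to 0.27 (Pold1), with 1 called lower (Cdc6). The 17 without one had a median of -0.10 and ran from -0.38 (Tyms) to 0.11 (Mcm2), with 1 called lower (Tyms). Gins2 was not among the 32 genes with a promoter in the table. The Mcm genes, 4 of which held 2 or 3 matches, lay near 0.

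Of 54 further genes of the replication pathway, 2 were called lower, and the median log2 fold change was 0.00. Over the 8 libraries 3 were called lower (median -0.11), and without control replicate 1 the count was 8. Pold2, the second subunit of polymerase delta, was at 39.3 to 52.6 CPM in control and 29.4 to 38.9 CPM in cKO pools, and no cKO pool reached the lowest control (log2 fold change -0.42, SE 0.09, adjusted p = 0.00822 by edgeR). It thus fell, while Pold1 and Pold3 of the same enzyme had positive values that did not pass the test. Fam111a, a protease that binds PCNA, fell from 60.3 ± 14.1 to 40.1 ± 5.12 CPM (SD, n = 6 pools each; log2 fold change -0.58, adjusted p = 0.0202 by edgeR). Both calls also held over the 8 libraries, with adjusted p of 0.0194 and 0.0439. Leaving out 1 library at a time, Pold2 was called in all 12 fits and Fam111a in 11 (not without control replicate 6, adjusted p = 0.0506).

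Of 26 E2F, Rb, cyclin and inhibitor genes, 4 were called higher and none lower, with a median log2 fold change of 0.05. Over the 8 libraries 5 were called higher and 2 lower, and without control replicate 1 the counts were 6 and 6. Cdkn1a (p21), an inhibitor of cyclin-dependent kinases that also binds PCNA, was at 6.97 to 8.93 CPM in control and 14.6 to 34.7 CPM in cKO pools (log2 fold change 1.56, SE 0.18, adjusted p = 0.000174 by edgeR). Ccnd1 (cyclin D1), which drives phosphorylation of Rb in G1, was at 35.0 to 48.5 and 68.4 to 103.8 CPM (log2 fold change 1.02, adjusted p = 0.000177 by edgeR). Ccnd2 (0.35, adjusted p = 0.00328 by edgeR) and Rb1, the repressor of E2F targets (0.43, adjusted p = 0.000746 by edgeR), rose by less. In these 4 genes every cKO pool lay over every control pool, and all 4 were also called over the 8 libraries and in all 12 fits that left out 1 library.

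Genes of G2 and mitosis were compared as the other phase of dividing cells. Of 25 genes, 2 were called lower and none higher, 21 were negative, and the median log2 fold change was -0.18. Birc5 (survivin), of the chromosomal passenger complex, fell from 68.1 ± 9.01 to 52.4 ± 1.196 CPM (SD, n = 6 pools each), with every cKO pool under every control (log2 fold change -0.37, adjusted p = 0.0115 by edgeR). Cdk1, the kinase of mitotic entry, fell from 133 ± 27.5 to 101 ± 4.35 CPM (log2 fold change -0.40, adjusted p = 0.0492 by edgeR). Birc5 was called in all 12 fits that left out 1 library, and Cdk1 in 1 of them, without control replicate 1 (adjusted p = 0.00255), and not in the other 11 (adjusted p up to 0.111). In the 8 libraries with low Xist 2 were called lower and none higher (median -0.18), Birc5 (adjusted p = 0.0166) and Cdk1 (adjusted p = 0.0348). Without control replicate 1, 12 of the 25 were called lower. The mean level of this list per pool was lowest in control replicate 1, at -0.36, as it was for the replication genes. In cKO replicates 5 and 6 it was -0.16 and -0.18, where the 54 further replication genes had a mean of 0.14 in both.

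**Figure D5:**
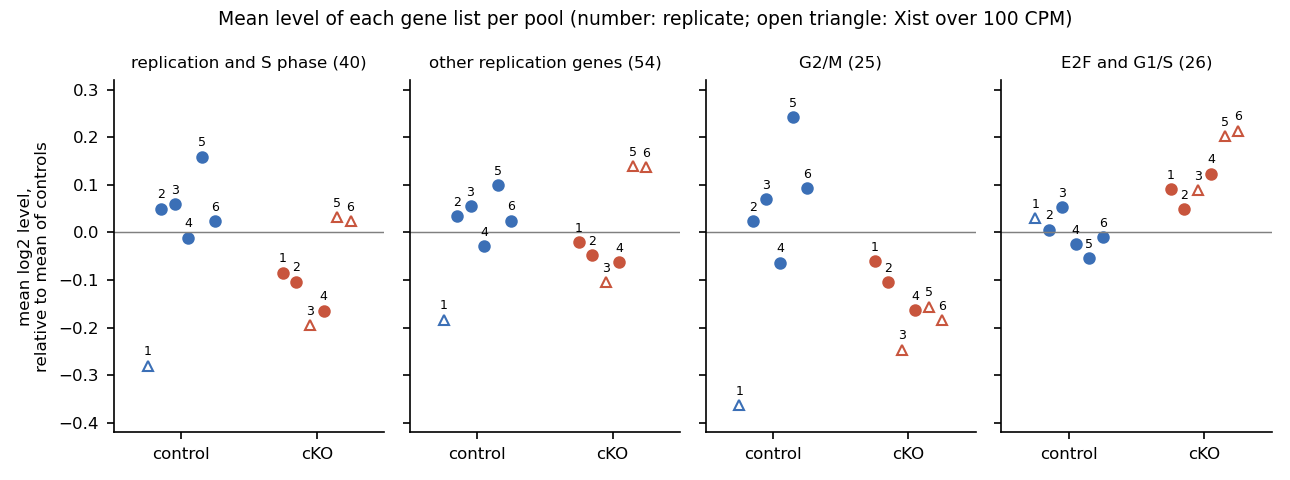
Mean log2 level per pool, relative to the mean of the 6 control pools, of the 40 replication and S phase genes, 54 further replication genes, 25 G2/M genes and 26 E2F and G1/S regulators. Open triangles have Xist over 100 CPM and digits are replicate numbers. Control replicate 1 is lowest in the first 3 lists, and cKO replicates 5 and 6 lie at 0.03 and 0.02 for the 40 genes but at -0.16 and -0.18 for G2/M.

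Markers of cell types moved between the groups beside these changes. The 6 smooth muscle and peritubular markers were all called lower (median log2 fold change -1.03), 4 of 6 fetal Leydig markers and 3 of 8 interstitial markers, with Nr2f2 among the latter, were called lower, and 3 of 8 immune markers were called higher. These counts were 4, 4, 3 and 2 over the 8 libraries, and without control replicate 1 they were 6, 5, 4 and 4. None of 8 Sertoli and none of 8 germ cell markers was called over 12 libraries, with summed levels of 1227 to 1783 CPM (control) and 1204 to 1712 CPM (cKO) for Sertoli and 1140 to 2109 and 1576 to 1909 CPM for germ cells. Over the 8 libraries 1 Sertoli marker, Wt1, was called lower (adjusted p = 0.0356 by edgeR) and 1 germ cell marker, Nanos2, higher (adjusted p = 0.032 by edgeR). Without control replicate 1, Wt1 and Cst9 were called lower and no germ cell marker was called. The Wt1 locus carries Cre in the cKO group alone, so lower Wt1 cannot be told apart from an effect of that allele. For the 12 meiotic markers the median log2 fold change was 0.77, with none called, the median was -0.00 over the 8 libraries, where 11 were tested and none called, and 5 were called higher without control replicate 1. Of the 8 ovarian markers 1, Wnt4, was called lower and the other 7 had positive values (median of the list 0.47), while over the 8 libraries 1 was called lower and 3 higher (Foxl2, Fst and Bmp2), and without control replicate 1 the counts were 1 and 5. Of 6 endothelial and 7 red cell markers 1 each was called lower, and of 5 mesonephric markers 2 were called higher. No endothelial or red cell marker was called over the 8 libraries, and of 4 mesonephric markers tested 1, Emx2, was called lower (adjusted p = 0.0454) and none higher. Without control replicate 1 the endothelial list had 1 called lower and 1 higher, the red cell list 2 lower and the mesonephric list 2 higher. No defining marker of Sertoli or germ cells was at 0 in any library. The part of cell composition in the levels of the replication genes was not tested.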

How the data were processed

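The 40 genes, their functional groups and the further lists were chosen with earlier results of these data known. The authors trimmed read pairs (Trim Galore 0.6.7), aligned them to mm10 with STAR 2.5, counted them by strand on RefSeq Curated genes with featureCounts (Subread 1.5.0-p1) and deposited raw counts, with no normalization. No column was left out. Genotypes were compared here by edgeR 4.0.16 under R 4.3.3 (TMM, filterByExpr with minimum count 10 and minimum total 15, glmQLFit, glmQLFTest, no covariate), and p-values were adjusted over all 15572 genes (threshold 0.05). Standard errors are the log2 fold change divided by the root of F, and log2 levels used a prior count of 2. In simulated data of this comparison (15503 genes), edgeR recovered 167 of 200 genes changed by 2-fold with 4 false calls. Those changes were larger than any of the 40 values, and no simulated library carried ovarian signal. The simulation therefore does not measure recovery or false calls at the sizes reported here. Alternatives were other scalings, no filter, DESeq2 1.42.0, limma-voom 3.58.1, a replicate block, Xist as a covariate, and libraries left out. Genes with adjusted p under 0.05 and the 10 members with the smallest p were named with the lowest, median and highest pool, and cell type markers were counted. Exon lengths came from GENCODE M21. The biological coefficient of variation over all genes was 0.17, and counting error adds to the spread of the least counted members, such as Gins2 and Pole2 with lowest counts of 119 and 111. Part of the results on the further replication genes is not reported here.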

Additional observations from a re-analysis of the deposited data

Results flagged for a closer look

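Among the 40 genes no pool lay far enough from the other 5 of its group to be flagged by Dixon's criterion for 6 values. Over the 104 groups examined, which also held the further genes called and the markers Foxl2, Stra8 and Xist, 2 values were flagged, and chance flags about 1 group in 20. Both belong to control replicate 1, in which Xist was at 891 CPM, where the next control was at 6.403 CPM, and Foxl2 was at 47.2 CPM, where the next control was at 0.53 CPM.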

How the results depend on the processing

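Gins2 was called lower in every alternative run. The 3 genes called lower and the none called higher were the same with DESeq2 size factors, upper quartile scaling, total counts alone and no filter on low counts. The number called lower was 5 with DESeq2 (which called 1909 of all genes, where edgeR called 1266) and 5 without the 4 libraries with Xist over 100 CPM. It was 1 with limma-voom, 1 with Xist as a covariate and 1 with the replicate block. The cause was not tested. No pairing of pools by replicate number was seen: correlations of same-numbered pools ran from -0.33 to 0.24, and 0 of 6 control pools matched best with its own number. The 4 libraries with Xist over 100 CPM entered these correlations and could hide a shared litter or batch. Whether the numbers pair the pools is therefore not known. Leaving out 1 library at a time gave 1 to 9 genes called lower (9 without control replicate 1, 2 without cKO replicates 2 or 6, and 1 otherwise) and 816 to 3106 of all genes. No gene was called higher in any of these alternatives, and the median of the 40 ran from -0.20 (the 8 libraries) to -0.03 (without control replicate 5). No called value changed sign. The sign turned in at least 1 alternative in 11 of the 40 genes, none of them called and none over 0.23 in size over 12 libraries.

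Pools of 3 testes give no measure of single animals, and 6 pools a group, of which 4 libraries carry ovarian markers, limit the precision of changes as small as those of most of the 40 genes. Litter and extraction dates are not given in the sources used here. The number called depends most on control replicate 1.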
